A study of Mus musculus with 6 samples.

Results

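The nuclear genes that encode the mitochondrial respiratory chain and ATP synthase were examined in monocytes from the central nervous system (CNS) of mice with experimental autoimmune encephalomyelitis (EAE), an immunization model of multiple sclerosis. They were chosen by name from the GENCODE M21 annotation: protein-coding nuclear genes whose mouse symbol starts with Nduf, Uqcr, Atp5, or Cox4 to Cox8, together with Sdha, Sdhb, Sdhc, Sdhd, Cyc1, and Cycs. Of 54232 genes in the files, 96 met this rule, and another 13 genes with a matching name were left out because they are not annotated as protein-coding. The RNA-seq experiment asked what recombinant IFN-β (rIFN-β) does to monocytes directly, by comparing cells with and without IFNAR1, a chain of the receptor for all type I IFNs, taken from the same kind of host. There were 3 WT and 3 Ifnar1-/- libraries. The cells came from mixed bone marrow (BM) chimeras: irradiated GFP+ recipients were given equal numbers of BM cells of both genotypes, the WT donors carrying CD45.1 and the Ifnar1-/- donors CD45.2, were immunized, and received 30000 IU of rIFN-β daily. Monocytes were sorted at the peak of disease as GFP- CD45+ CD11b+ Ly6Chi Ly6G- cells. Every library came from rIFN-β-treated mice, so there was no untreated control, and the CD45 type differed with the Ifnar1 genotype, so the genotype and the donor strain cannot be told apart. The sources used here do not state the age of the mice or the Ifnar1 allele. There were 3 GFP+ recipients, as many as libraries in each group, so WT and Ifnar1-/- libraries may share recipients, and which of them do is not given. Cells of the recipient itself carry GFP, and the sort took GFP- cells. The labels number the libraries 1 to 3 in each group without saying that each is a separate animal or pool, so the p-values below measure the spread between these libraries.

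The respiratory chain is a series of protein complexes in the inner mitochondrial membrane. Complex I takes electrons from NADH and complex II from succinate; both pass them to ubiquinone, complex III hands them on to the small carrier cytochrome c, and complex IV gives them to oxygen. Complexes I, III, and IV pump protons, and ATP synthase uses the returning protons to make ATP. All complexes except complex II also hold subunits encoded by mitochondrial DNA, so their assembly needs the products of both genomes. In macrophages and monocytes, the balance between this pathway and glycolysis is known to shift with activation.

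Values are given as normalized CPM, with library sizes adjusted by the TMM method, and log2 fold changes are WT over Ifnar1-/-, so a negative value means a lower level in WT. A gene was called when the quasi-likelihood test of edgeR, run over all genes, gave an adjusted p no higher than 0.05 with a difference of 1.5-fold or more. The 6 libraries held 4531782 to 7321380 expected counts, and 3 counts, taken as the detection floor, equal 0.410 to 0.662 CPM, a figure that covers counting error only. Ifnar1 itself measured 111 to 152 normalized CPM in WT and 101 to 110 in Ifnar1-/- libraries (log2 fold change 0.28 ± 0.15 (SE), edgeR adjusted p = 0.36). The lowest WT value was just above the highest Ifnar1-/- value, and the gene was not lost in the libraries labelled Ifnar1-/-. The labels do not say which exons the allele disrupts, and a count over the whole gene may miss such a change. The groups are therefore those of the labels throughout. Of 16 interferon-stimulated genes, 15 were called higher in WT (median log2 fold change 4.08). All 8 monocyte markers were measured, from 176 to 9677 normalized CPM, and of these Ly6c2 was called higher in WT. Ly6g, the gene of the excluded neutrophil marker, did not exceed 0.787 normalized CPM. The 8 neutrophil markers, of which 7 were tested and 0 were called, summed to 331 to 2180 in WT and 843 to 2437 in Ifnar1-/- libraries and were highest in library 3 of both groups. All 7 tested T cell markers of a list of 10 had a positive log2 fold change. In the main edgeR fit and by DESeq2 0 were called, and with edgeR 6 were higher in WT at an unadjusted p under 0.05. Every WT library lay above every Ifnar1-/- library for 4 of the 7, against 11.1% of all tested genes. Without a filter on low counts, edgeR called 7 of the 10 markers higher in WT. With the replicate block and GC and length offsets described below, it called 3 of 7. The T cell marker list summed to 21.8 to 53.8 normalized CPM in WT and 8.95 to 24.4 in Ifnar1-/- libraries. Microglia markers summed to 254 to 327 in WT and 293 to 373 in Ifnar1-/- libraries, and 0 of the 4 tested were called. Of 5 B cell markers, 3 had counts and 0 were tested, with sums of 1.483 to 1.702 in WT and 0.304 to 1.10 in Ifnar1-/- libraries, which did not overlap, and Pax5 was at 0. Of 7 neural markers, 6 had counts, with sums of 44.9 to 61.3 in WT and 44.6 to 51.0 in Ifnar1-/- libraries, and Mog was at 0. The part of these other cells in the results below was not tested.

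Respiratory chain genes were, as a group, at a slightly lower level in WT than in Ifnar1-/- monocytes, and 1 of them, Ndufa12, passed the test. Counts were present for 92 of the 96 genes, and 86 passed the expression filter. The 4 genes without a count were Cox7b2, Cox8b, Cox8c, and a second identifier named Atp5o. The 6 that had counts and did not pass had at most 11 in any library, and they were Atp5s, Cox4i2, Cox6a2, Cox6b2, Cox7a1, and Ndufa4l2. Summed over all libraries, the tested genes had 71 to 16366 counts each. Of the 86, 1 was called lower in WT, where 0.462% of all 11254 tested genes were. None was called higher, where 1.67% of all tested genes were. With an unadjusted p under 0.05, 33 were lower, against 8.14% of all tested genes, and 0 were higher, against 9.69%. The count of 33 was 16 without WT library 1, 50 without WT library 2, and 19 without WT library 3. It was 21, 25, and 17 without Ifnar1-/- libraries 1, 2, and 3. The share of all tested genes at this p was not counted in these fits. DESeq2, run as an alternative, called 3 lower and 0 higher, and its calls over all genes are given with the other alternatives below.

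The log2 fold change was below 0 for 83 of the 86 genes, against 51.8% of all tested genes. Its median was -0.33, a difference of -20.2%, with quartiles of -0.47 and -0.20, while the median over all tested genes was -0.0145. Every WT library lay below every Ifnar1-/- library for 45 genes, against 12.2% of all tested genes. The opposite separation was seen for 0 genes, against 11.1% of all. The groups overlapped for the other 41. Most differences were smaller than the fold change asked of a call. The estimate was beyond 1.5-fold for 13 genes. For 21 genes, the 95% interval lay within 1.5-fold in both directions, and for the other 65 it reached beyond 1.5-fold lower, and of all 86 intervals that of Ndufa12 alone lay wholly beyond it.

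**Figure D1:**
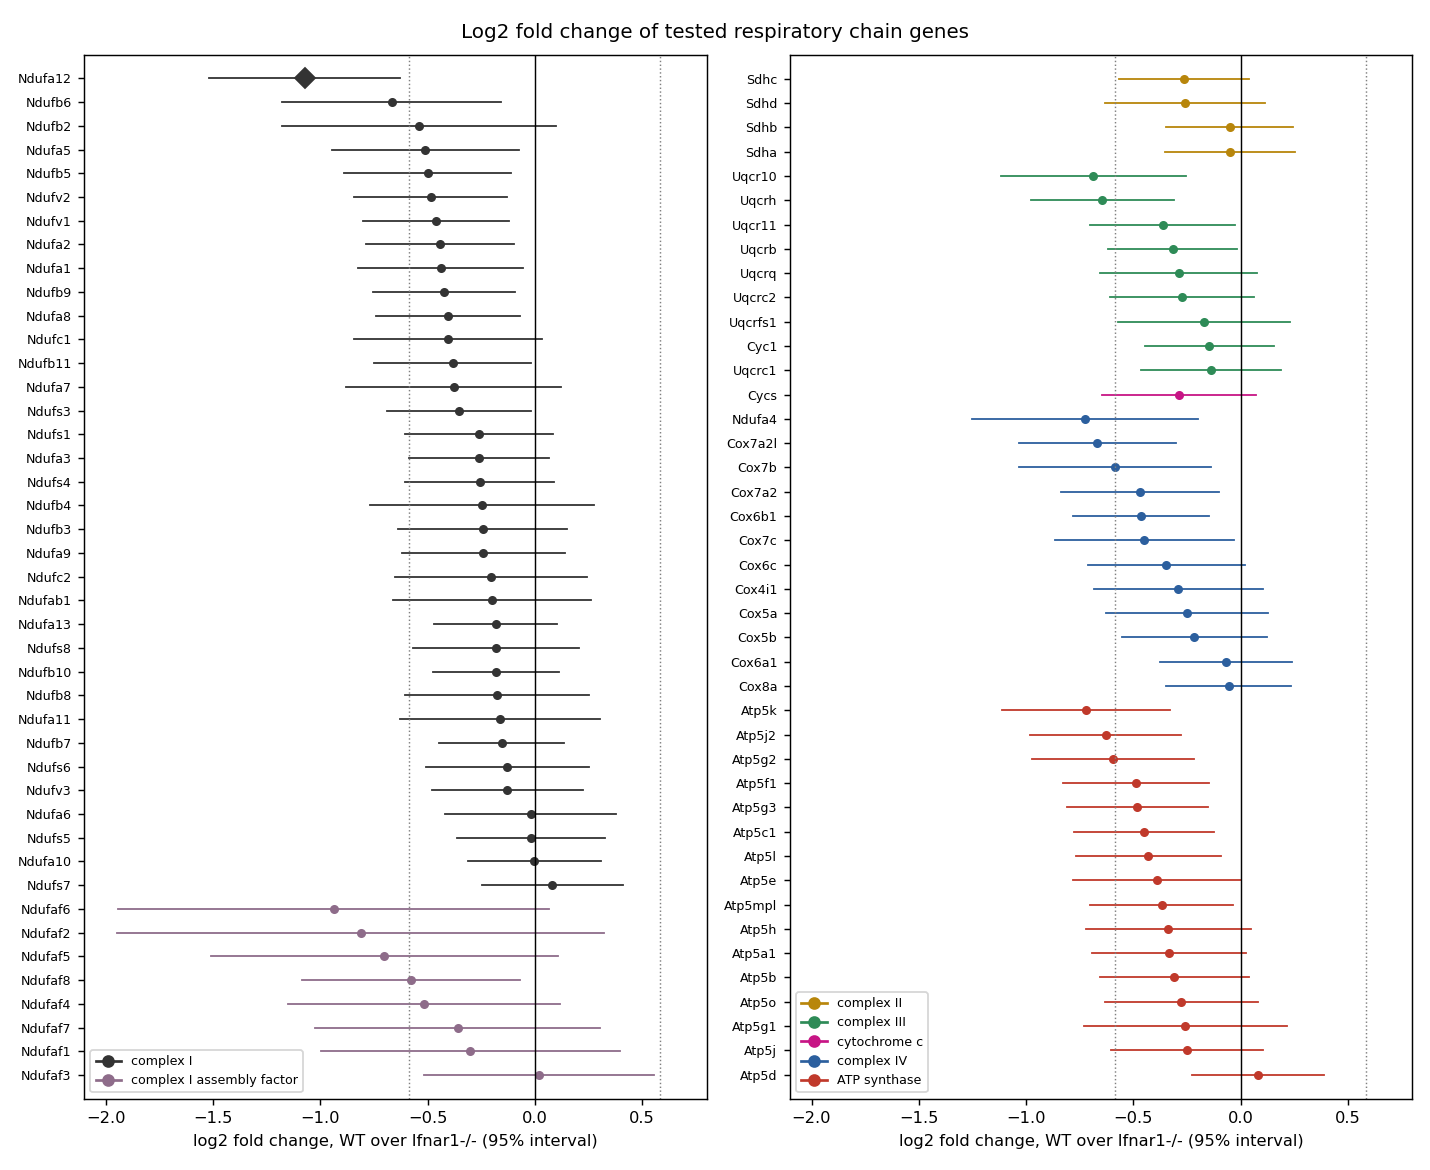
Log2 fold change (WT over Ifnar1-/-, x axis) of the tested genes with its 95% interval, grouped by complex, with 1 gene not drawn; dotted lines mark a fold change of 1.5 in each direction and the diamond marks the called gene. All points except 3 lie left of 0, and Ndufa12 at -1.07 is the farthest left.

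The libraries did not contribute evenly. For each gene, each library was set against the mean of all 6 on the log2 scale, and the median over the 86 genes was -0.38, 0.02, and -0.17 in WT libraries 1, 2, and 3. The Ifnar1-/- libraries stood at 0.17, 0.15, and 0.18. WT library 1 was thus the lowest and WT library 2 was near the mean of all libraries, while the Ifnar1-/- libraries lay close together. WT library 1 gave the lowest of the 6 values for 53 of the 86 genes, WT library 3 for 24, and WT library 2 for 4. Without WT library 1, 79 of the 86 genes were still below 0, with a median of -0.24, and without WT library 2 the median was -0.42. Respiratory chain genes took 0.536%, 0.759%, and 0.660% of the counts of nuclear protein-coding genes in WT libraries 1 to 3 and 0.834%, 0.813%, and 0.863% in the Ifnar1-/- libraries. In bulk RNA of sorted cells, a change in the mixture of cells and less RNA of these genes per cell cannot be told apart.

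Complex I, the largest of the complexes and the entry point for electrons from NADH, contributed 36 tested subunit genes. Of these, 35 had a log2 fold change below 0, and 19 had every WT library below every Ifnar1-/- library. The median was -0.26. It was -0.20 without WT library 1, with 31 of the 36 below 0, and -0.40 without WT library 2. Ndufa12, an accessory subunit of the arm that extends into the matrix, lies at chr10:94198720-94221443 on the plus strand in GRCm38. Its normalized CPM was 12.3, 19.5, and 13.2 in the WT group (replicates 1 to 3) and 33.8, 31.9, and 28.2 in the Ifnar1-/- group (replicates 1 to 3), the order used for all genes below. The lowest Ifnar1-/- library was well above the highest WT library. The means were 15.0 ± 3.91 (SD, n = 3) and 31.3 ± 2.83 (SD, n = 3), and Ndufa12 fell by 1.07 on the log2 scale in WT (SE 0.20, 95% interval -1.52 to -0.63, edgeR adjusted p = 0.0208). The call was lost when any library other than WT library 2 was left out. The edgeR adjusted p was 0.0746 without WT library 1, 0.102 without WT library 3, and 0.116, 0.0747, and 0.0535 without Ifnar1-/- libraries 1, 2, and 3. Without WT library 2 it was 0.0119. Across these fits its log2 fold change ranged from -1.28 to -0.93.

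The 250 bases before the RefSeq start of Ndufa12 and 50 bases after it are shown because it was the called gene, with those of Uqcrh and Atp5k, which had the next smallest adjusted p-values, and of Cox8a, whose groups overlapped. The sequences are from RefSeq (GRCm38.p6), each 5′ to 3′ on the gene's own strand. The RefSeq start of Ndufa12 lies downstream of the GENCODE gene boundary given above, so its window falls inside the GENCODE gene. Capitals mark matches, on either strand, to 3 motifs of factors known to act at promoters of respiratory chain genes: GCATGCG, the core of the site of nuclear respiratory factor 1 (Nrf1), CCGGAAG, a site of ETS factors such as GABPA, and AAGATGG, the core of the YY1 site.
Ndufa12, chr10:94198785-94199084, plus strand: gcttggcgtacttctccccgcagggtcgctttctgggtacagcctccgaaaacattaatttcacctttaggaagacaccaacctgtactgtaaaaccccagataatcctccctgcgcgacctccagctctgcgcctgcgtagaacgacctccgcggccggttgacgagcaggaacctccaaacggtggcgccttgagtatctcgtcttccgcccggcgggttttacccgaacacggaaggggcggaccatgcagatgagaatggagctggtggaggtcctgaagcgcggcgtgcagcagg
Uqcrh, chr4:116075021-116075320, minus strand: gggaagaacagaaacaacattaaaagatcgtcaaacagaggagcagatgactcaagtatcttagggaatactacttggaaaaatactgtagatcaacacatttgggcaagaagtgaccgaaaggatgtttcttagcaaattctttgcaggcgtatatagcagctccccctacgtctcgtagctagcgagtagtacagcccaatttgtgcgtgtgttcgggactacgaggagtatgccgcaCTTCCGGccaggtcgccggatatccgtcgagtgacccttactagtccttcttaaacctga
Atp5k, chr5:108434350-108434649, minus strand: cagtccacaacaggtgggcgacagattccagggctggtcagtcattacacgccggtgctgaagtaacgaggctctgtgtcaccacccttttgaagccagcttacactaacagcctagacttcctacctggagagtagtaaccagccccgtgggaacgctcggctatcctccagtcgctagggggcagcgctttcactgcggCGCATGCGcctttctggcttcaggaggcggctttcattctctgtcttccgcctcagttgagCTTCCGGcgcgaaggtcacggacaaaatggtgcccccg
Cox8a, chr19:7217567-7217866, minus strand: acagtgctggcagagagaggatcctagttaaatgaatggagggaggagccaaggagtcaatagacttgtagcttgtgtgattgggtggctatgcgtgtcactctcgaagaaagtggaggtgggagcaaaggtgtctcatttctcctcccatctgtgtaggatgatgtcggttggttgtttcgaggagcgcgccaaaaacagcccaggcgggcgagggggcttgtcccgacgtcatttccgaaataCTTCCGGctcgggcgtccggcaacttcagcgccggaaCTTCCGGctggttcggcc
Ndufa12 had no match in this window, Uqcrh had 1 to the ETS motif, and Cox8a had 2 to it. Atp5k had 1 to the ETS motif and an NRF1 core that matches on both strands with 1 base of offset, which is counted as 2 matches.

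The 7 nuclear-encoded core subunits of complex I carry the electrons. Ndufv1, the subunit that binds NADH, measured 45.2, 63.1, and 50.2 normalized CPM in WT and 74.7, 71.3, and 71.7 in Ifnar1-/- libraries. The groups did not overlap, with a difference of -0.46 ± 0.15 (SE) on the log2 scale and an edgeR adjusted p of 0.156. For Ndufs1, the largest iron-sulfur subunit, values were 34.5, 42.4, and 42.5 in WT and 42.9, 45.1, and 54.8 in Ifnar1-/- libraries, a separation of less than 1 normalized CPM (log2 fold change -0.26). Ndufs7, which carries the last iron-sulfur cluster before ubiquinone, was the 1 core subunit above 0, at 0.08 ± 0.15 (SE). Of the 7 core genes, 6 were below 0 with a median of -0.35, and of the 29 other subunit genes all were, with a median of -0.25.

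Several accessory subunits of complex I were level between the groups. Ndufa6 had the highest level of the complex I genes when counts are corrected for transcript length, and it measured 53.3, 81.1, and 76.6 normalized CPM in WT and 61.8, 77.7, and 73.9 in Ifnar1-/- libraries. The Ifnar1-/- values lay within the range of the WT values, and in both groups library 1 was the lowest. The log2 fold change of Ndufa6 was -0.02, with a 95% interval of -0.42 to 0.38, and Ndufa10 and Ndufs5 stood at -0.0021 and -0.02. The level of Ndufb4 was uncertain because a processed pseudogene of its family, Ndufb4c, took more counts than Ndufb4 did. For all genes, pseudogenes with names outside the rule were not examined. Ndufb4c measured 21.4 to 35.4 normalized CPM in WT and 36.2 to 46.6 in Ifnar1-/- libraries, while Ndufb4 measured 9.93 to 18.0 and 14.3 to 18.4. RSEM divides reads that fit both, so the separate values depend on that division. The log2 fold changes were -0.25 for Ndufb4 and -0.58 for Ndufb4c, and neither was called.

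**Figure D2:**
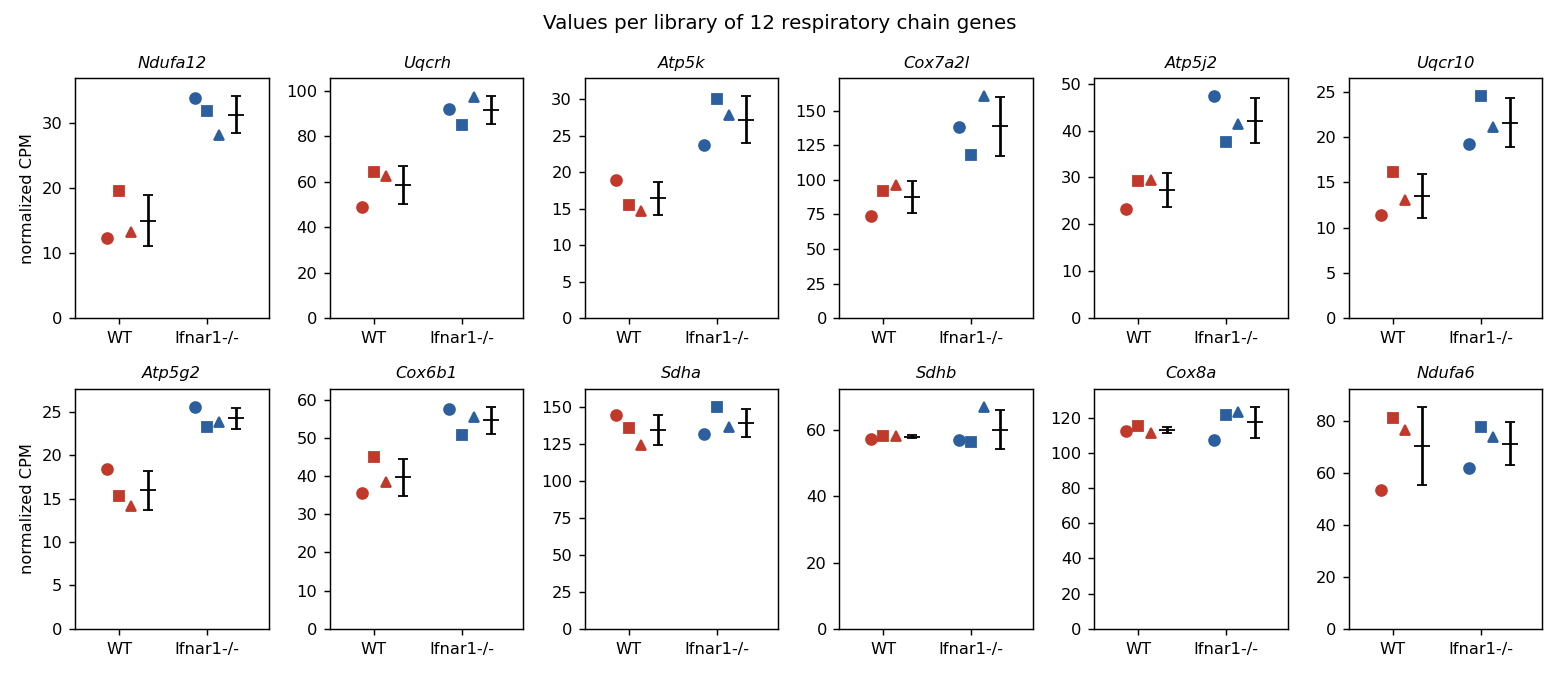
Normalized CPM (y axis, from 0) of 12 genes in each library, with circles, squares, and triangles for libraries 1, 2, and 3 of WT (red) and Ifnar1-/- (blue), and the mean ± SD of the 3 libraries in black beside them. In the first 8 panels all WT points lie below all Ifnar1-/- points, and in the last 4 (Sdha, Sdhb, Cox8a, and Ndufa6) they overlap.

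The 8 Ndufaf genes encode assembly factors of complex I, which help to build it and are not part of the finished enzyme. Ndufaf8 aside, they had lower length-corrected levels than any complex I subunit gene, and their estimates were less precise, with a median SE of 0.31 on the log2 scale against 0.17 for the subunit genes. Of the 8, 7 were below 0 (median -0.55), and in 2, Ndufaf6 and Ndufaf8, every WT library lay below every Ifnar1-/- library. Ndufaf8, which had the highest length-corrected level of these genes, measured 9.08, 10.8, and 7.67 normalized CPM in WT and 17.0, 12.0, and 11.9 in Ifnar1-/- libraries (log2 fold change -0.58, edgeR adjusted p = 0.224). The WT values reached to within about 1 normalized CPM of the lowest Ifnar1-/- values. Ndufaf6 had the most negative estimate, -0.94, with a 95% interval of -1.94 to 0.07. Ndufaf3 was at 0.02, with an interval of -0.51 to 0.56.

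Complex II, or succinate dehydrogenase, also belongs to the TCA cycle and is encoded by nuclear DNA alone. Its catalytic subunits were level. Sdha, the flavoprotein that oxidizes succinate, measured 145, 136, and 124 normalized CPM in WT and 132, 150, and 137 in Ifnar1-/- libraries. Sdhb, the iron-sulfur subunit, measured 57.3, 58.3, and 58.2 in WT and 56.9, 56.4, and 66.9 in Ifnar1-/- libraries. For both genes the groups overlapped, the log2 fold change was -0.05, and the 95% interval stayed within 1.5-fold in each direction (-0.35 to 0.25 for Sdha and -0.35 to 0.24 for Sdhb). The membrane anchors Sdhc and Sdhd were each at -0.26, and only for Sdhc did the groups not overlap. None of the 4 genes had an unadjusted p under 0.05 with edgeR, and DESeq2 called 0.

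Complex III, or the cytochrome bc1 complex, had 9 tested genes, all below 0, with a median of -0.29 (-0.15 without WT library 1) and 5 without overlap between the groups. The lowest were small accessory subunits. Uqcrh, the hinge protein next to cytochrome c1, measured 49.1, 64.2, and 62.6 normalized CPM in WT and 92.2, 84.95, and 97.3 in Ifnar1-/- libraries. Uqcrh had a log2 fold change of -0.65 ± 0.15 (SE) and an edgeR adjusted p of 0.0610, the second smallest among all respiratory chain genes, and DESeq2 called it (adjusted p = 0.0151). Uqcr10, a small subunit of the same complex, measured 11.3, 16.1, and 13.0 in WT and 19.2, 24.5, and 21.1 in Ifnar1-/- libraries (log2 fold change -0.69, edgeR adjusted p = 0.113). In both genes a gap separated the groups. The redox and core subunits differed less: the log2 fold changes were -0.15 for Cyc1 (cytochrome c1), -0.17 for Uqcrfs1 (the Rieske iron-sulfur protein), -0.14 for Uqcrc1, and -0.27 for Uqcrc2, with edgeR adjusted p-values of 0.378 to 0.666. Of these, only Uqcrc2 had groups that did not overlap. With the GC and length offsets described below, the contrast was smaller. There Uqcrh was at -0.29, Uqcr10 at -0.34, Cyc1 at -0.30, and Uqcrfs1 at -0.12. Uqcrc1 and Uqcrc2 were both at -0.19, and Uqcrb was at 0.17. With effective length offsets, Uqcrh and Uqcr10 were at -0.56 and -0.55, and the redox and core subunits ranged from -0.28 to 0.02. Uqcrq, at the highest length-corrected level in the complex, measured 62.5, 90.9, and 77.9 normalized CPM in WT and 96.3, 102, and 84.1 in Ifnar1-/- libraries, and the groups overlapped.

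Cycs encodes cytochrome c, which carries electrons from complex III to complex IV and also triggers apoptosis when released. It measured 65.9, 76.5, and 61.0 normalized CPM in WT and 98.9, 74.6, and 74.8 in Ifnar1-/- libraries. Ifnar1-/- library 1 was high, and the other Ifnar1-/- libraries were below WT library 2. The log2 fold change was -0.29 ± 0.16 (SE), with an edgeR adjusted p of 0.382, and -0.13 without Ifnar1-/- library 1.

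Complex IV, or cytochrome c oxidase, had 12 tested genes, all below 0, with a median of -0.40 and 7 without overlap. The median was -0.27 without WT library 1 and -0.50 without WT library 2. With 2 kinds of offsets described below, fewer were below 0. The numbers were 10 of the 12 with effective length offsets and 8 with GC and length offsets. Ndufa4 is counted here because its product is a subunit of complex IV in spite of its name. Cox7a2l measured 74.2, 92.1, and 96.0 normalized CPM in WT and 138, 118, and 160 in Ifnar1-/- libraries. Cox7a2l had a log2 fold change of -0.67 ± 0.17 (SE) and an edgeR adjusted p of 0.0751, and DESeq2 called it (adjusted p = 0.0145). Cox6b1, a subunit on the side of the intermembrane space, measured 35.5, 44.9, and 38.6 in WT and 57.5, 50.7, and 55.5 in Ifnar1-/- libraries (log2 fold change -0.46, edgeR adjusted p = 0.135). For both genes the 3 WT libraries were the 3 lowest. Cox7b, a small subunit encoded on the X chromosome, was spread widely in WT, at 47.4, 86.4, and 71.0 normalized CPM, and measured 102, 108, and 96.6 in Ifnar1-/- libraries (log2 fold change -0.59, edgeR adjusted p = 0.168). Cox8a was level, at 112, 115, and 111 in WT and 107, 122, and 123 in Ifnar1-/- libraries. The log2 fold change of Cox8a was -0.06 with an interval of -0.35 to 0.24, and Cox6a1, at -0.07, was level too. Cox6c, the complex IV gene at the highest length-corrected level, measured 110, 162, and 143 normalized CPM in WT and 173, 186, and 169 in Ifnar1-/- libraries (log2 fold change -0.35, edgeR adjusted p = 0.299), and the groups did not overlap. The subunits Cox4i1, Cox5a, and Cox5b stood at -0.29, -0.25, and -0.22, and their groups overlapped.

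Many complex IV subunits exist as a widely expressed form and a form typical of heart, skeletal muscle, testis, or lung, and these monocytes carried the widely expressed ones. To set genes side by side, the deposited TPM values, which are corrected for transcript length, were rescaled so that nuclear protein-coding genes have the same sum in each library. The rescaling was made because Rn7s2, an RNA of the signal recognition particle, took 278102 TPM in WT library 1 and 73569 to 111751 in the others, which lowers every other TPM there. On this scale the mean over all 6 libraries was 608 ± 97.7 (SD) for Cox4i1 and 3.18 ± 1.89 for Cox4i2. The pair Cox6a1 and Cox6a2 stood at 284 ± 17.7 and 0.910 ± 0.766, and Cox6b1 and Cox6b2 stood at 234 ± 43.6 and 2.598 ± 1.398. Every second form rested on at most 11 counts in any library, so its level is known only roughly. Cox7a2 stood at 148 ± 32.96, against 1.25 ± 1.53 for Cox7a1, whose counts were 0 in all 3 WT libraries and 2, 2, and 1 in the Ifnar1-/- libraries. Cox7a2l, a related gene that is not counted here as a tissue form, stood at 265 ± 71.5. Cox8a was at 675 ± 33.9, and Cox8b, Cox8c, and Cox7b2 had 0 counts in all 6 libraries. Ndufa4 was at 58.9 ± 18.0 and its hypoxia-related relative Ndufa4l2 at 0.952 ± 1.40. The 3 genes of subunit c of ATP synthase, which encode the same mature protein, were all expressed: Atp5g3 was at 212 ± 38.5, and Atp5g1 and Atp5g2 were both at about 78 (77.9 ± 15.6 and 77.8 ± 16.8), a difference within their spread.

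**Figure D3:**
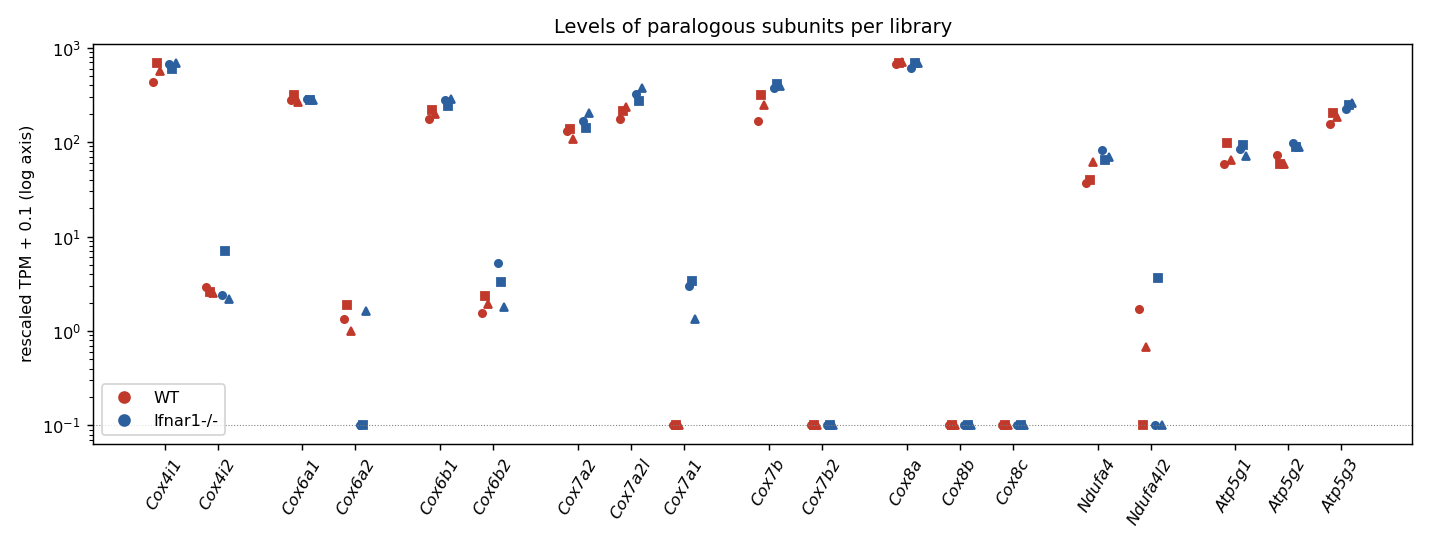
Rescaled TPM plus 0.1 (log axis) of paralogous subunits in each library, with WT in red and Ifnar1-/- in blue and the marker shape giving the library number; the dotted line at 0.1 is a level of 0. Cox4i1, Cox6a1, Cox6b1, Cox7a2, Cox7a2l, Cox7b, and Cox8a lie far above their relatives, and the 3 Atp5g genes lie within 1 order of magnitude of each other.

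ATP synthase had 16 tested genes, of which 15 were below 0, with a median of -0.38 and 11 without overlap between the groups. The genes with the smallest p-values encode parts of the membrane sector. Atp5k, subunit e, which helps to pair the enzyme into dimers, measured 19.0, 15.5, and 14.8 normalized CPM in WT and 23.7, 30.1, and 27.9 in Ifnar1-/- libraries. Atp5k had a log2 fold change of -0.72 ± 0.18 (SE) and an edgeR adjusted p of 0.0727. Atp5j2, subunit f, measured 23.3, 29.2, and 29.5 in WT and 47.3, 37.7, and 41.4 in Ifnar1-/- libraries (log2 fold change -0.63, edgeR adjusted p = 0.0815). Neither gene showed overlap, and WT library 1 was the highest WT value for Atp5k and the lowest for Atp5j2. Atp5g2, 1 of the genes for the subunit c of the rotating ring, measured 18.4, 15.3, and 14.2 in WT and 25.6, 23.3, and 23.8 in Ifnar1-/- libraries. On the log2 scale Atp5g2 differed by -0.60 (edgeR adjusted p = 0.113), beside -0.48 for Atp5g3 and -0.26 for Atp5g1, and the groups of Atp5g1 overlapped.

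Atp5b, the catalytic beta subunit of ATP synthase, measured 328, 421, and 318 normalized CPM in WT and 442, 439, and 440 in Ifnar1-/- libraries. The 3 Ifnar1-/- values were nearly the same and WT library 2 came close to them (log2 fold change -0.31 ± 0.16 (SE), edgeR adjusted p = 0.331). The log2 fold change of Atp5b was -0.09 with effective length offsets and -0.19 with GC and length offsets, both described below. Atp5mpl, a small membrane protein bound to the enzyme, had the highest mean rescaled TPM of all the respiratory chain genes, 1016 ± 137 (SD, n = 6), next to 1012 ± 155 for Cox6c, a difference within their spread. Atp5mpl measured 63.0, 82.4, and 83.4 normalized CPM in WT and 94.97, 104, and 96.05 in Ifnar1-/- libraries (log2 fold change -0.37, edgeR adjusted p = 0.235). Atp5d, the delta subunit of the central stalk, was the 1 ATP synthase gene above 0, with 89.5, 97.2, and 79.3 in WT and 81.9, 89.3, and 80.3 in Ifnar1-/- libraries. The groups overlapped, and the log2 fold change was 0.08 with an interval of -0.22 to 0.39.

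On the rescaled TPM scale, all respiratory chain genes together summed to 14624, 18894, and 17373 in WT libraries 1, 2, and 3 and to 19776, 20349, and 20216 in the Ifnar1-/- libraries. The means of 16963 ± 2164 (SD, n = 3) and 20114 ± 300 (SD, n = 3) differed by -15.7%, and every WT library was below every Ifnar1-/- library. In deposited TPM the sums were 4956, 9443, and 8328 in WT and 8205, 10051, and 8507 in Ifnar1-/- libraries, and there the groups overlapped. By complex, the difference in rescaled TPM was -16.7% for ATP synthase, -14.0% for complex I, -18.2% for complex III, -15.3% for complex IV, -6.64% for complex II, -9.98% for cytochrome c, and -31.5% for the complex I assembly factors. The groups did not overlap for complexes I, III, and IV, ATP synthase, and the assembly factors, and they overlapped for complex II and cytochrome c. These sums are descriptions of 3 libraries against 3, and whether the complexes differ from each other was not tested.

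**Figure D4:**
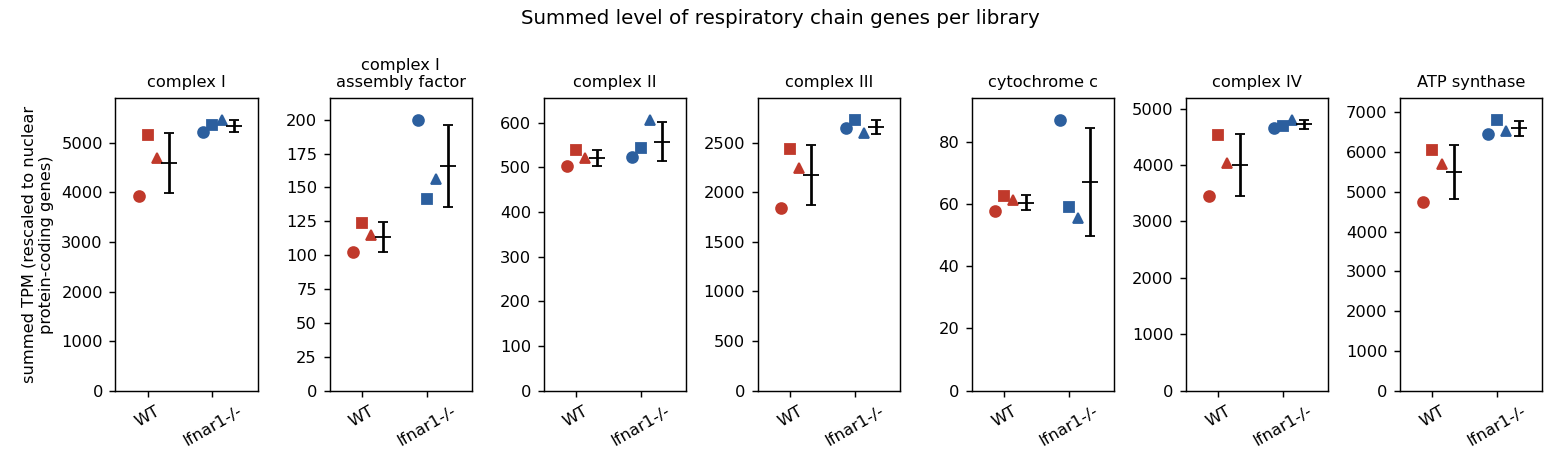
Summed rescaled TPM (y axis, from 0) of the genes of each complex in each library, with circles, squares, and triangles for libraries 1, 2, and 3 of WT (red) and Ifnar1-/- (blue) and the mean ± SD in black. WT library 1 is the lowest point in all panels except that of cytochrome c, where it is at 57.7 and Ifnar1-/- library 3 at 55.4.

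Genes that work beside the respiratory chain were counted from lists. The 13 subunits encoded by mitochondrial DNA had 12 values below 0 and a median of -0.70, and 1 was called lower in WT, mt-Atp8, an ATP synthase subunit, at 203, 279, and 246 normalized CPM in WT and 442, 529, and 365 in Ifnar1-/- libraries (log2 fold change -0.88, edgeR adjusted p = 0.0400). None of the 13 was called without WT library 1 or 3 or without any 1 of the 3 Ifnar1-/- libraries, and 1 was called without WT library 2. With GC and length offsets the median was -0.22 and 0 were called. DESeq2 called 4 of the 13, all lower. Of 46 tested assembly factors with other names, 31 were below 0 (median -0.15) and 1 was called, Uqcc2, an assembly factor of complex III, at 10.5, 14.4, and 11.2 in WT and 23.9, 22.0, and 19.8 in Ifnar1-/- libraries (log2 fold change -0.87, edgeR adjusted p = 0.0458). Again 0 of the 46 were called when WT library 1 or 3 or any 1 of the Ifnar1-/- libraries was left out, and 1 was without WT library 2. The median of this list was -0.09 without WT library 1 or 3 and -0.25 without WT library 2, and with GC and length offsets 25 were below 0, with a median of -0.06 and 0 called. DESeq2 called 2 of the list. Of 13 TCA cycle genes, 12 were below 0 (median -0.16), and edgeR called 0, with 4 lower and 0 higher at an unadjusted p under 0.05, while DESeq2 called 1. Of 14 tested genes for mitochondrial transcription and its regulators, 6 were below 0 and 8 above (median 0.08), a direction that turned with either kind of offsets, with or without the replicate block, in both limma fits on TPM, and without WT library 3 (medians of -0.11 to -0.0053). Among them, Nrf1 and Gabpa, which encode the factors of 2 of the motifs shown above, stood at 0.09 and -0.23. Neither edgeR nor DESeq2 called any, and 1 was lower and 0 were higher at an unadjusted p under 0.05. Ppargc1a, a coactivator of mitochondrial biogenesis, had 0 counts in all 6 libraries.

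Ribosomal protein genes, with median transcript lengths of 1031 bases (mitochondrial) and 712 bases (cytosolic), showed the same direction. Of 78 tested mitochondrial ribosomal protein genes, 68 were below 0 (median -0.26), and edgeR and DESeq2 each called 0, with 13 lower and 0 higher at an unadjusted p under 0.05. Of 77 cytosolic ribosomal protein genes, all 77 were below 0 (median -0.51), and 6 were called lower by edgeR and 17 by DESeq2. The number edgeR called was 1 without WT library 1 or 3 or any 1 of the Ifnar1-/- libraries, and 11 without WT library 2, and the median was -0.29 with GC and length offsets. Negative values were thus also found outside the respiratory chain. The median deviation of the cytosolic ribosomal protein genes from the mean of all libraries was -0.49 in WT library 1, -0.01 in WT library 2, and -0.26 in WT library 3, an order of libraries like that of the respiratory chain genes.

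Of the 86 tested genes, 72 had a RefSeq window around their start, and the 3 motifs were searched in these and in all 17492 windows of protein-coding genes. The 17492 windows include genes that did not pass the expression filter in these cells, and the part of this in the shares was not tested. The NRF1 core was found in 13 of 72 (18.1%) against 4.49% of all windows, the ETS motif in 17 (23.6%) against 11.9%, and the YY1 core in 11 (15.3%) against 6.37%. At least 1 of the 3 was found in 35 windows (48.6%), against 20.7% of all. The motifs did not follow the difference between the groups in one direction. Among the 34 windows of genes without overlap between WT and Ifnar1-/-, the NRF1 core was found in 14.7%, the ETS motif in 29.4%, and the YY1 core in 17.6%. Among the 38 windows of genes with overlap, the shares were 21.1%, 18.4%, and 13.2%. These are counts of letters, without a test, and a match is not a measured binding site.

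Technical features of the libraries and genes moved with the comparison. The mean fragment length, taken as transcript length minus effective length in the files, was 196, 200, and 206 bases in WT and 175, 186, and 174 bases in Ifnar1-/- libraries, so it did not overlap between the groups and its effect and that of the genotype cannot be told apart. The tested respiratory chain genes had a median transcript length of 740 bases, against 2133 over all tested genes, and a median GC content of 50.6% against 49.96%. Over all 11254 genes, the log2 fold change correlated with transcript length (Spearman rho = 0.22) and with GC content (rho = 0.37), and within the 86 genes the same values were 0.21 and 0.32. These are correlations across genes of the same libraries, so the points share their error. With offsets for the effective length of each gene in each library, which shorter fragments lengthen, 78 of the 86 genes were below 0, the median was -0.26, and Ndufa12 was not called (log2 fold change -0.95, edgeR adjusted p = 0.0916). With offsets for GC content and length fitted in each library, 65 of the 86 were below 0, against 56.6% of all tested genes. The median was -0.17, and Ndufa12 was called (log2 fold change -0.80, edgeR adjusted p = 0.0450). In this fit the estimate was positive for 21 genes, and those include Ndufa6 (0.33), Atp5mpl (0.11), Cox5a (0.09), and Cox8a (0.09), while by complex the medians were -0.16 for ATP synthase, -0.14 for complex I, -0.19 for complex III, and -0.13 for complex IV.

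**Figure D5:**
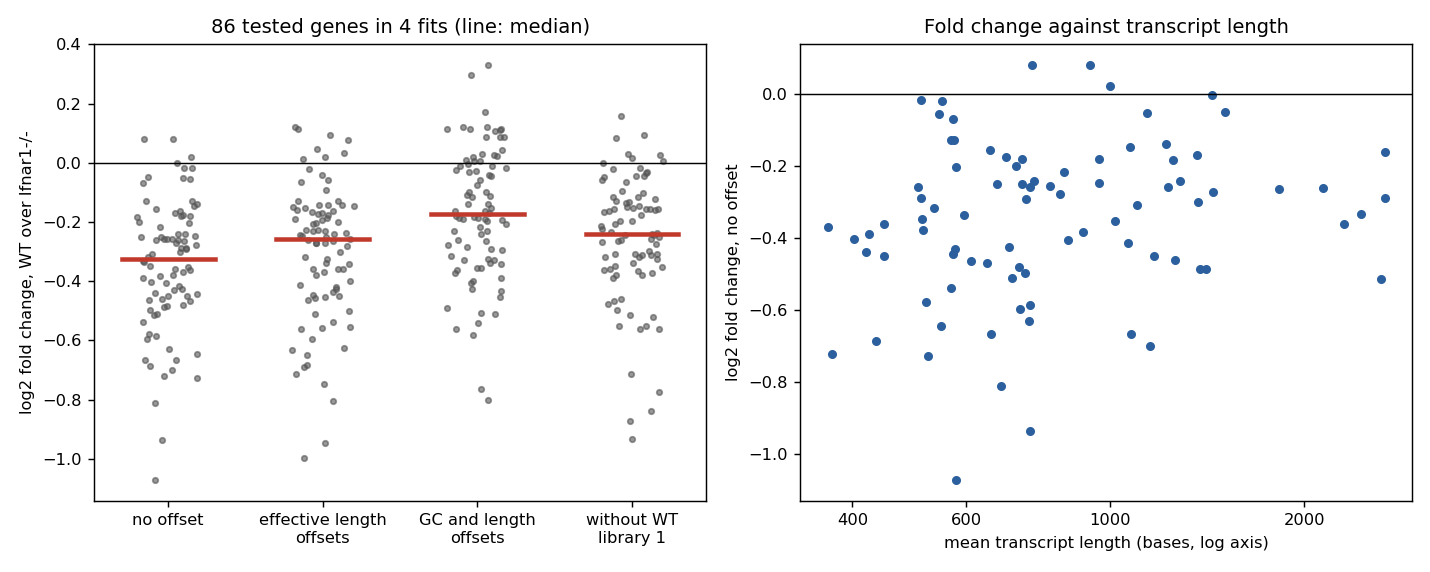
Left, log2 fold change (WT over Ifnar1-/-) of the 86 tested genes in 4 fits, with the red line at the median: -0.33 without offsets, -0.26 with effective length offsets, -0.17 with GC and length offsets, and -0.24 without WT library 1. Right, the log2 fold change without offsets against the mean transcript length in bases (log axis), 1 point per gene (rho = 0.21).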

How the data were processed

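Monocyte libraries (3 WT, 3 Ifnar1-/-, grouped by their titles) were analysed from gene-level RSEM files. Per the labels, the authors used STAR 2.6.0c, RSEM 1.2.31, and GRCm38. The labels and the methods of the study name different library kits, and the strand setting of the counting was not given in the sources used here. The deposited expected counts are estimates that are not normalized, and the deposited TPM values are corrected for length and scaled by the authors to 1 total in each library. FPKM values were not used. GENCODE M21 matched 54165 of 54232 gene identifiers. Expected counts were rounded and tested with edgeR 4.0.16 in R 4.3.3 (TMM, filterByExpr with a minimum count of 10, quasi-likelihood test, Benjamini-Hochberg adjustment over 11254 genes, no covariate). Alternatives included DESeq2 1.42.0, limma 3.58.1 on log2 TPM, other filters and normalizations, offsets for GC content and length, a replicate block, and leaving out each library. Effective length offsets were chosen after seeing the data. The scripts were tested on simulated data. Genes named are those called, the 8 with the smallest p in each direction (3 were higher), the highest TPM in each complex, core subunits, and paralog groups; other genes were chosen after their values were seen. Members and lists were chosen with earlier results of these data known. Totals of 4531782 to 7321380 counts limit the precision for genes near the filter. Values of a few genes are not reported here.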

Additional observations from a re-analysis of the deposited data

How the results depend on the processing

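The direction of the respiratory chain genes held in every alternative tried, and the number of calls did not. Medians stayed between -0.420 and -0.1739, and 65 to 87 genes were below 0. Of 84 genes with a value in all 21 fits, 57 were below 0 in each. Values that moved were as follows. DESeq2 called 105 genes lower and 314 higher over all genes, and 3 respiratory chain genes (Cox7a2l, Ndufa12, Uqcrh). Without a filter on low counts the numbers were 262, 610, and 7 (Atp5j2, Atp5k, Cox7a2l, Cox7b, Ndufa12, Uqcr10, Uqcrh). Both of these fits held 21265 genes, 92 of them respiratory chain genes, against 11254 and 86 in the main fit. Limma on log2 TPM called 26 lower and 100 higher with a pseudocount of 1, and 21 and 90 with 0.1, and 0 respiratory chain genes in both, of which 8 and 7 were lower at an unadjusted p under 0.05. Effective length offsets gave 16 lower and 0 respiratory chain genes (21 at an unadjusted p under 0.05). With GC and length offsets the median was -0.1739. The cause of these shifts was not tested. Leaving out 1 library gave 7 (WT 3 or Ifnar1-/- 1) to 41 (WT 2) genes lower and 110 (Ifnar1-/- 3) to 204 (WT 2) higher, and 0 to 1 respiratory chain genes, with 1 only without WT 2.

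Same-numbered libraries deviated from their group means with correlations of 0.0950, 0.0264, and 0.253. Each WT library correlated best with the Ifnar1-/- library of its own number. Ifnar1-/- library 2 correlated best with WT library 1 (0.0775), and the other Ifnar1-/- libraries with their own number. Whether same-numbered libraries share a recipient is not given in the sources, and these values do not settle it. The main fit used no block. The replicate block called 38 genes lower and 182 higher, of which 190 were shared with the fit without it, and 1 respiratory chain gene, with a median of -0.3318. With GC and length offsets added to the block, 84 genes were lower and the median was -0.1751, and with effective length offsets added, 14 were lower and 0 respiratory chain genes were called.

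Of 37 genes named by the rule, 10 changed sign in at least 1 alternative. With GC and length offsets, Atp5mpl was at 0.1125, Ndufa6 at 0.3311, Cox5a at 0.08645, Cox6c at 0.02854, and Cox8a at 0.08862, and with the block added at 0.1115, 0.3318, 0.08122, 0.02783, and 0.0886. Effective length offsets put Ndufa6 at 0.07803, Cyc1 at 0.02006, Cox6a1 at 0.01281, and Cox8a at 0.03285, and with the block at 0.06538, 0.009409, 0.007196, and 0.03617. In limma on TPM, Ndufa6 and Cox8a were at 0.05001 and 0.02027 with a pseudocount of 1 and at 0.04983 and 0.02029 with 0.1. Leaving out 1 library, the values ranged from -0.124 to 0.158 for Ndufa6, -0.06618 to 0.1364 for Ndufaf3, -0.09456 to 0.02953 for Sdha, -0.08071 to 0.0495 for Sdhb, and -0.1493 to 0.03216 for Cox6a1.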
